A study of Mus musculus with 8 samples.

Results

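Mrc1-negative class II high macrophages are 181 cells among the 119053 cells that passed the quality limits in 8 libraries of CD45+ mouse brain cells. They were chosen by counts of unique molecules (UMIs) of 14 genes in each cell. A member had at least 15 UMIs summed over H2-Aa, H2-Ab1, H2-Eb1 and Cd74, at least 2 UMIs of Ms4a7, at most 1 UMI summed over the border macrophage genes Mrc1, Cd163, Cbr2 and Stab1, and 0 UMIs of the dendritic, B-cell and T-cell genes Cd209a, Ccr7, Cd79a, Ms4a1 and Cd3e. The mice were C57Bl/6J males, labelled as 5 to 6 months old (the methods give a younger range), whose brains were taken 24 hours after a single intraperitoneal injection of LPS at 15000000 EU/kg or of an equal volume of sterile saline. Dissociation was done either in DMSO or in a mixture of transcription and translation inhibitors, which crossed with the injection gave 4 groups of 2 libraries, named below by injection and dissociation. The 8 libraries came from 8 brains in all, and the labels do not tie a brain to a library. The brains were not perfused, and CD45+ cells were enriched with magnetic beads before capture by PIPseq, a droplet method without microfluidics.

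Major histocompatibility complex class II molecules present peptides from engulfed material to CD4 T cells. Their alpha and beta chains assemble with the invariant chain Cd74, and H2-DM exchanges the remaining fragment of that chain for a peptide. At the borders of the brain (meninges, perivascular spaces and choroid plexus) macrophages fall into kinds that carry much class II and kinds that carry Mrc1, Cd163, Lyve1 and little class II, whereas microglia of the healthy parenchyma carry little of either. LPS, a bacterial cell wall component sensed by Tlr4, is known to induce acute phase, metal-binding and chemokine genes in myeloid cells.

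The promoters of 4 genes are shown, chosen with their values known, because the metallothioneins were among the largest rises and the class II pathway among the falls described below. Each is the stretch of 250 bases before the RefSeq start of the gene, 5′ to 3′ on the strand of the gene, in build GRCm38.p6. Mt1 is on chr8:94178839-94179088 and Mt2 on chr8:94172368-94172617, both on the plus strand. H2-DMb1 is on chr17:34152941-34153190 on the plus strand, and H2-Aa on chr17:34287824-34288073 on the minus strand. In the metallothionein promoters capitals mark TGCNCNC, the core of the metal response element, on either strand. In the class II promoters they mark CCAAT, or ATTGG on the opposite strand, which is the core of the Y box.
Mt1: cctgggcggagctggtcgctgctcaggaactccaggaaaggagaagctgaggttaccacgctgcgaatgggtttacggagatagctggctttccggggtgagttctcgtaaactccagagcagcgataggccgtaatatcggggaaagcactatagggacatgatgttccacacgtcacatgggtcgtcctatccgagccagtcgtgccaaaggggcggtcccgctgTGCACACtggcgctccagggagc
Mt2: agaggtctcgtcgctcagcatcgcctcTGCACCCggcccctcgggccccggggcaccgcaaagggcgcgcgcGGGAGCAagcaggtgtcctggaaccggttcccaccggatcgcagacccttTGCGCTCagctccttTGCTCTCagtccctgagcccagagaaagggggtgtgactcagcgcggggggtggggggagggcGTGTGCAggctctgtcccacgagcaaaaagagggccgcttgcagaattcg
H2-DMb1: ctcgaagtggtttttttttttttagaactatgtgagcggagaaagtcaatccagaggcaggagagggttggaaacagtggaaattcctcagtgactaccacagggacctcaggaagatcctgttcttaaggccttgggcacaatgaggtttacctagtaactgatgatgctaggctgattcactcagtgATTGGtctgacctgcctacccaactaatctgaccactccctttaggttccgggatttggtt
H2-Aa: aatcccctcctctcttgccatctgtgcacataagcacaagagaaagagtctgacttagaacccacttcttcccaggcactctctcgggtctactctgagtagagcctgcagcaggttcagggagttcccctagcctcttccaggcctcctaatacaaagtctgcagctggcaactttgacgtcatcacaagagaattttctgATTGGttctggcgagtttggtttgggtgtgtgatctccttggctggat
The Mt2 stretch held 5 matches to the metal response core and the Mt1 stretch held 1. Among 32851 promoters of the same length in the RefSeq table, 44.4% held at least 1 such match and 1.28% held at least 4. The Y box core stood once in H2-DMb1, at positions -61 to -57 from the start, and once in H2-Aa, at -48 to -44, and 33.8% of all promoters held it. Of the 2 RefSeq starts of H2-DMa, whose promoters are not printed, one had 0 matches and the other 1, at -198 to -194. These matches describe letters in a window and were not tested for binding.

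The members were a small share of the cells in every library. Libraries are given here and below in the order DMSO replicates 1 and 2, then inhibitors replicates 1 and 2. The saline libraries held 14, 17, 20 and 48 members among 57415 cells in all, and the LPS libraries 23, 26, 20 and 13 among 61638. In percent of the cells of each library these were 0.106, 0.127, 0.124 and 0.327 in saline and 0.135, 0.216, 0.132 and 0.0749 in LPS. The last saline library stood above the other 3, and the groups overlapped. The mean share was 0.171% ± 0.104 (SD, n = 4) in saline and 0.139% ± 0.058 (SD, n = 4) in LPS. The share rests on the rule and is a description, and without saline inhibitors replicate 2 the difference turned from -0.032 to 0.020 percentage points.

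The wider pool of class II high, Ms4a7+ cells was smaller in the LPS libraries, and the members were a larger part of it. This pool (the same limits on class II, Ms4a7 and the dendritic and lymphocyte genes, any count of border genes) held 103, 98, 147 and 255 cells in the saline libraries and 49, 49, 45 and 27 in the LPS libraries. Cells with at least 4 UMIs of the 4 border genes, called Mrc1-positive below, numbered 407 in saline and 44 in LPS, while the members numbered 99 and 82. Members were therefore 13.6%, 17.3%, 13.6% and 18.8% of the pool in saline and 46.9%, 53.1%, 44.4% and 48.1% in LPS (mean 15.8% ± 2.66 and 48.1% ± 3.62, SD, n = 4 each). The groups did not overlap. Mrc1 and the other border genes were themselves lower in Mrc1-positive cells of LPS libraries (Mrc1 at 2243 CPM in saline and 934 CPM in LPS, where CPM is the summed count of a gene scaled to a common total of UMIs per library and kind of cell), and a loss of cells and a loss of RNA per cell cannot be told apart here.

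**Figure D1:**
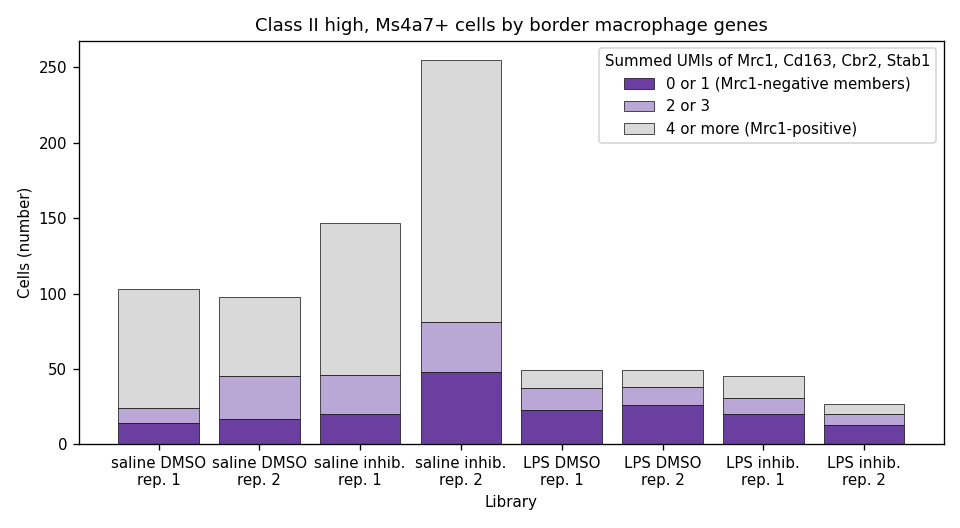
Number of class II high, Ms4a7+ cells in each library, stacked by the summed UMIs of Mrc1, Cd163, Cbr2 and Stab1. Cells with a sum of 0 or 1 are the members: they number 14 to 48 in the saline and 13 to 26 in the LPS libraries, while cells with 4 or more number 53 to 174 in the saline and 7 to 14 in the LPS libraries.

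Values just inside and outside the limits differed between the groups. No member of a saline library had a class II sum of 15 to 19, against 7 members of LPS libraries, and 1 saline and 9 LPS cells that met the other limits had a sum of 10 to 14. The median class II sum was 234 UMIs in saline members (range 20 to 1744) and 72 in LPS members (15 to 399). Ms4a7 stood at its lower limit of 2 UMIs in 32 saline and 35 LPS members, and 77 saline and 112 LPS cells that met the other limits had 1 UMI. Of the members, 54 in saline and 54 in LPS had 0 UMIs of the border genes and the rest had 1.

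No difference in the depth of the members was detected between the groups. The median UMIs per member were 2927 ± 662 (SD, n = 4 libraries) in saline and 3353 ± 283 (n = 4) in LPS (exact two-sided permutation test, p = 0.314), whereas over all cells the medians were 2662 ± 511 and 4353 ± 288 (exact permutation p = 0.0286, the smallest that 4 libraries against 4 can give). Total UMIs per library ran from 90352359 to 141182123. The share of a member's UMIs estimated to come from free RNA (barcodes with 1 to 99 UMIs) was 5.77% to 11.4% in saline libraries and 4.19% to 5.14% in 3 of the LPS libraries, but 24.5% in LPS inhibitors replicate 2. No member's barcode occurred in another library. A single member stood apart in LPS DMSO replicate 1, where 1 of 23 carried 665 of the 678 UMIs of Spp1.

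Genes outside the rule were those of macrophages. C1qa, C1qb and C1qc, the chains of the complement recognition protein, stood at 5494 ± 1165, 6409 ± 1329 and 2523 ± 350 CPM (SD, n = 4) in saline and at 4455 ± 291, 5286 ± 1025 and 1358 ± 358 CPM in LPS. The lysozyme gene Lyz2 stood at 13890 ± 3472 CPM in saline members against 518 CPM in microglia (P2ry12, Tmem119 and Siglech of at least 4 UMIs together, without Ms4a7 or border genes). Csf1r, the receptor that macrophages need to survive, and Adgre1, which encodes F4/80, were at 1430 and 490 CPM in saline and at 765 and 199 CPM in LPS. All 15 genes of the macrophage marker list had UMIs in both groups, and their summed level ran from 31911 to 38697 CPM in saline and from 16951 to 21044 CPM in LPS. Microglia also carry genes of this list, so the sum alone does not tell members from microglia. Cx3cr1 stood at 3883 CPM in saline microglia and 2262 CPM in saline free RNA, against 821 CPM in members, while Lyz2 went the other way. Free RNA held 6719 and 9830 CPM of C1qa in saline and LPS, but 948 and 761 CPM of Lyz2.

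Markers of most other cells were low. Ttr, a choroid plexus gene, was not, at 6188 ± 5909 CPM (SD, n = 4) in saline and 772 ± 191 CPM in LPS members, against 73111 and 17017 CPM in free RNA. Among border macrophage genes that the rule did not use, Lyve1, Cd209f, Cd209g, Ccl24 and Ednrb were at 0 UMIs in all members. The summed level of that list of 16 genes ran from 567 to 1687 CPM in saline and from 552 to 1143 CPM in LPS members, against 5494 to 8136 and 1541 to 2979 CPM in Mrc1-positive cells. The 11 microglial genes summed to 3413 to 8323 CPM in saline and 808 to 2335 CPM in LPS members, against medians of 35912 and 8083 CPM in microglia and 21601 and 6260 CPM in free RNA. P2ry12, a receptor typical of microglia, had a UMI in 41.4% of saline members and in 41.3% of lymphocytes (at least 3 UMIs of Cd79a and Cd3e), which should lack it. The median depths were 2733 and 2831 UMIs. Whether the P2ry12 UMIs of members were background was not tested. Of 13 dendritic genes, Flt3, Xcr1, Clec9a, Dpp4, Irf4, Itgae and Zbtb46 had 0 UMIs in LPS members and 1 to 6 each in saline members. The chemokine gene Ccl17 of that list had 23 UMIs in saline members, all in 1 cell, and 150 in LPS members, 77 of them in LPS inhibitors replicate 1, where 1 cell carried 74. The whole dendritic list summed to 115 to 567 CPM in saline and 106 to 955 CPM in LPS members (medians 206 and 453 CPM, against 405 and 266 CPM in free RNA), and the classical monocyte list of 10 genes to 384 to 1085 and 267 to 596 CPM. Neutrophil genes summed to 99.8 to 295 CPM in saline and 203 to 246 CPM in LPS members. The B-cell list summed to 109 to 399 and 34.5 to 106 CPM, and the T-cell and NK list to 0 to 85.5 CPM and 0 CPM. Erythrocyte, endothelial and fibroblast genes reached at most 393, 115 and 48.6 CPM, nonclassical monocyte genes at most 269 CPM, and oligodendrocyte genes at most 99.5 CPM apart from LPS inhibitors replicate 2, where the list summed to 3871 CPM. Of the CD45 gene Ptprc at least 1 UMI was seen in 55 of 99 saline and 36 of 82 LPS members.

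**Figure D2:**
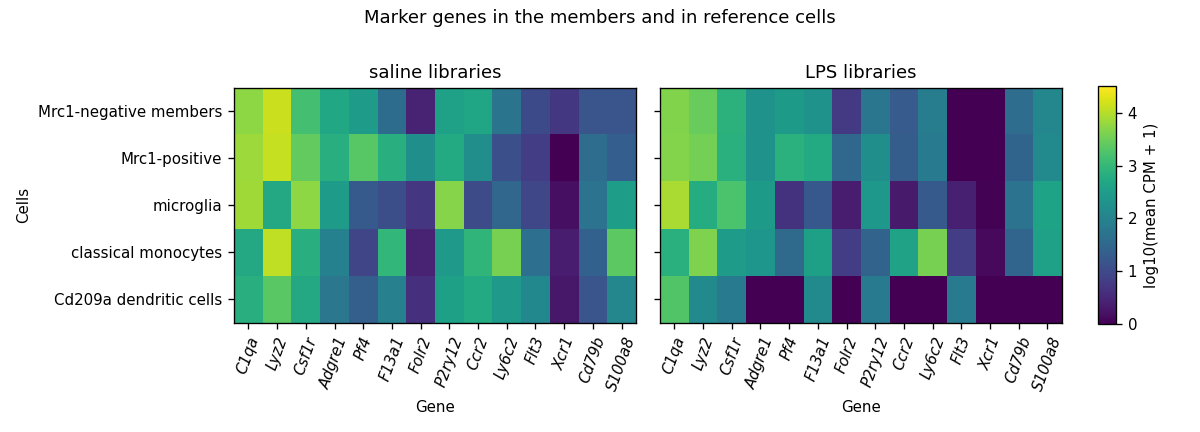
Mean CPM (colour, log10 of CPM plus 1) of marker genes in the members and in 4 reference gates, for saline libraries (left) and LPS libraries (right). The members carry C1qa, Lyz2 and Csf1r like Mrc1-positive cells, with less Pf4 and F13a1, and the Cd209a dendritic gate of the LPS panel rests on 3 cells.

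Saline members included many cells with the monocyte chemokine receptor Ccr2. At least 1 UMI of Ccr2 was found in 6 of 14, 7 of 17, 8 of 20 and 19 of 48 members of the saline libraries, together 40.4% (exact 95% interval 30.7 to 50.7), and in 0 of 23, 1 of 26, 1 of 20 and 1 of 13 members of the LPS libraries, together 3.66% (0.761 to 10.3). Microglia, which should lack it, showed a UMI in 1.55% of cells in saline and 0.642% in LPS, at medians of 2358 and 5599 UMIs. With every cell thinned to 1500 UMIs (16 saline and 5 LPS members were shallower and left out) the shares of members were 30.1% and 2.60%. Of the 40 saline members with Ccr2, 22 also had at least 2 UMIs of P2ry12, Tmem119, Sall1 and Siglech, against 48 of all 99 saline members, and the cells with Ccr2 were deeper (median 3553 against 2395 UMIs). Such intervals cover counting error only, and cells of 1 library are not independent of each other.

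The class II genes of the rule were far lower in LPS members, which is given as a description because the rule used them. Cd74 stood at 39909, 39794, 39274 and 51069 CPM in the saline libraries and at 11997, 22561, 19642 and 16632 CPM in the LPS libraries. H2-Aa went from 12014 ± 2515 CPM in saline to 2512 ± 766 in LPS, H2-Ab1 from 12556 ± 1255 to 3038 ± 241, and H2-Eb1 from 12282 ± 1453 to 2405 ± 562 (SD, n = 4 each). For these 4 genes no LPS library reached a saline library. The tetraspanning membrane gene Ms4a7 stood at 1182 ± 250 CPM in saline and 847 ± 111 in LPS, and there the groups overlapped. Mrc1-positive cells had lower class II in both groups, with H2-Aa at 7518 CPM in saline and 2268 CPM in LPS.

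Across the other genes LPS libraries differed widely from saline libraries. Member UMIs were summed per library, and 1250 genes outside the rule had enough counts to be tested with edgeR's quasi-likelihood test, 4 libraries against 4. At a Benjamini-Hochberg adjusted p under 0.05, 203 genes (16.2%) were higher and 183 (14.6%) lower in LPS. Of these 386, 46 higher and 39 lower genes had a log2 fold change over 2 in size. The median log2 fold change of all tested genes was 0.01. DESeq2 called 325 genes.

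Lcn2 and Saa3 had the largest fitted rises. Lcn2, which encodes the siderophore-binding lipocalin 2, had 0 UMIs in every saline library and stood at 5901, 4808, 3061 and 1106 CPM in LPS, at least 504-fold higher against a floor of 3 counts over the saline libraries (adjusted p = 4.59e-05). Saa3, an acute phase serum amyloid, stood at 57.6, 16.4, 69.7 and 0 CPM in saline and at 67466, 81987, 93295 and 44622 CPM in LPS (log2 fold change 11.02 ± 0.65 SE, adjusted p = 2.63e-07). Every LPS member held at least 1 UMI of Saa3, with a median of 88.5 and a highest value of 2616 in a cell, and 6 of 99 saline members held any. In these libraries Saa3 was also abundant outside the members: free RNA held 40106 CPM, lymphocytes 11510 CPM and microglia 31478 CPM, while members stood at 71842 and Mrc1-positive cells at 109742 CPM (adjusted p = 0.526 between these 2 in the 7 libraries with at least 10 cells of each, edgeR). Lcn2 was at 5128 CPM in free RNA of LPS libraries, 724 CPM in lymphocytes, 3942 CPM in microglia and 7466 CPM in Mrc1-positive cells, against 3719 CPM in members (edgeR, adjusted p = 0.0536 between the last 2 in the same 7 libraries). Both p values cover saline and LPS libraries together and do not test the LPS levels alone. After subtraction of the estimated free RNA the Saa3 difference was 13.94 on the log2 scale and remained past the threshold, and Lcn2 no longer passed the filter on low counts.

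The receptors Fpr1, Fpr2 and Fpr3, which guide phagocytes towards bacterial and host peptides, had 0 UMIs in all saline members. Fpr2 stood at 186, 246, 357 and 489 CPM in the LPS libraries, Fpr3 at 251, 207, 207 and 468 CPM, and Fpr1 at 219, 148, 138 and 191 CPM. Against the floor of 3 counts these were at least 33.5-fold, 30.3-fold and 20.7-fold higher (adjusted p = 0.000179, 0.00016 and 0.000146). The 3 genes are close paralogs, and how the authors' counting shared reads between them is not given in the sources used here. Fpr1 was higher in free RNA of LPS libraries (309 CPM) than in the members, and with free RNA subtracted its log2 fold change was 6.70.

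A gene was tested only where at least 4 of the 8 libraries reached 107 CPM, so a gene that was low in one group was tested through the other, and counts over gene lists are given as descriptions. Of the metallothionein and iron list of 8 genes, 5 were tested and Mt1, Mt2 and Fth1 rose (16.2% of all genes did), Mt2 having passed through LPS libraries alone. Mt1, a metallothionein that binds zinc and copper, stood at 173, 180, 348 and 314 CPM in saline and at 6460, 3793, 2693 and 5700 CPM in LPS (log2 fold change 4.08 ± 0.32 SE, adjusted p = 5.21e-06). Its neighbour Mt2 had 1 UMI in saline, in DMSO replicate 2, and 984 in LPS, where it stood at 3729, 2424, 1565 and 3020 CPM (pooled ratio 971, interval for counting error only 174 to 38385, adjusted p = 2.63e-07). These are the genes of the first 2 promoters printed above. Fth1, the iron-storing ferritin heavy chain, went from 9030 ± 3335 to 40474 ± 4889 CPM (log2 fold change 2.11, adjusted p = 0.000209), while Ftl1, the light chain, was at 3022 and 3012 CPM. Sod2, the mitochondrial superoxide dismutase, stood at 0, 115, 109 and 57.0 CPM in saline and at 1354, 1064, 1266 and 1255 CPM in LPS (log2 fold change 4.0 ± 0.41 SE, adjusted p = 4.59e-05).

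Ccl5, a chemokine that draws T cells and monocytes, had the highest mean level of the 14 listed chemokines in LPS members. It stood at 76.7, 81.9, 3304 and 178 CPM in saline and at 13853, 27526, 24544 and 10507 CPM in LPS (log2 fold change 4.30 ± 0.98 SE, adjusted p = 0.006). Saline inhibitors replicate 1 lay far above the other saline libraries: 8 of its 20 members carried 332 UMIs, and 1 of them carried 100. All 82 LPS members held Ccl5, against 80.0% of microglia in the same libraries and 51.3% of lymphocytes. The mean levels in LPS libraries were 19107 CPM in members, 11377 in Mrc1-positive cells, 4089 in microglia and 1691 in lymphocytes. Over 7 libraries, 4 saline and 3 LPS, the difference from Mrc1-positive cells did not pass (edgeR, adjusted p = 0.0827), which does not test the LPS levels alone. With inhibitor libraries alone the log2 fold change was 3.32 and did not pass the threshold (adjusted p = 0.0645).

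The membrane proteins Jaml and Cd38 and the enzyme Sugct completed the 12 largest rises. Jaml, which binds the adhesion molecule CAR on epithelia, stood at 0, 0, 79.6 and 14.3 CPM in saline and at 454, 532, 598 and 659 CPM in LPS (log2 fold change 4.21 ± 0.55 SE, adjusted p = 0.000179). All 8 saline inhibitors replicate 1 UMIs of Jaml came from 1 cell. In LPS libraries Jaml stood at 21.6 CPM in microglia and 646 CPM in Mrc1-positive cells. Cd38, an NAD-consuming ectoenzyme, stood at 0, 16.4, 29.9 and 7.13 CPM in saline and at 203, 276, 299 and 383 CPM in LPS (log2 fold change 4.14 ± 0.50 SE, adjusted p = 0.00011). Sugct, a mitochondrial enzyme of glutarate metabolism, went from 24.4 ± 26.2 to 378 ± 60.5 CPM (log2 fold change 4.24, adjusted p = 0.00018), and in LPS inhibitors replicate 2, the highest library, 1 cell carried 20 of its 21 UMIs. For all 3 the LPS libraries lay above every saline library, which the rule for naming genes required.

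**Figure D3:**
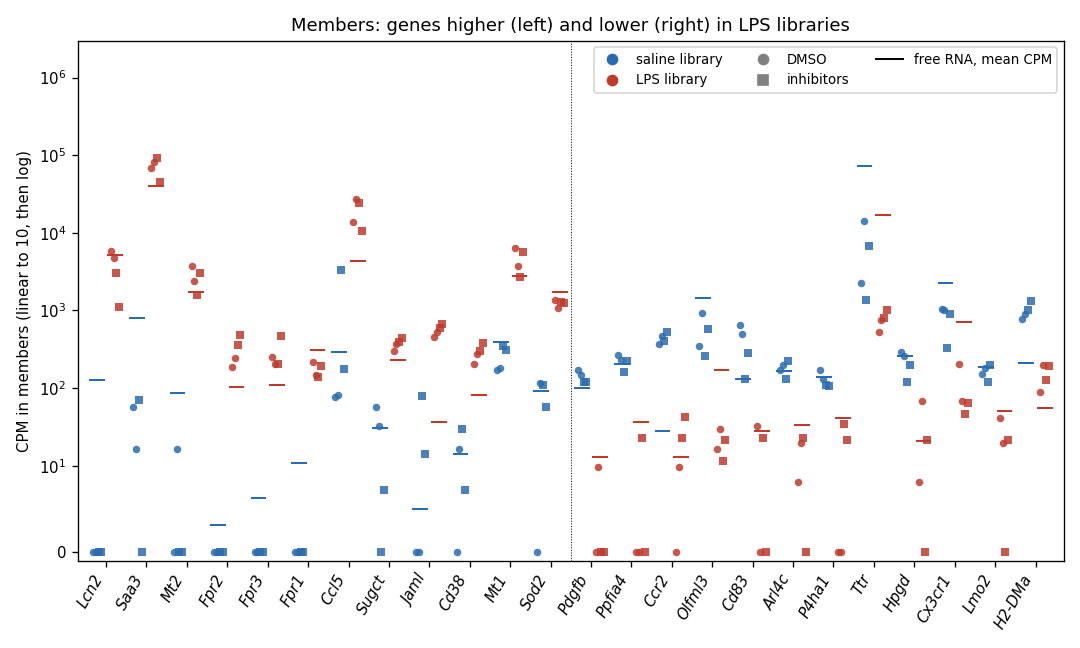
CPM of the 12 genes with the largest rise and the 12 with the largest fall in LPS members, by library (points, linear to 10 CPM and logarithmic above; circles DMSO, squares inhibitors). Short lines give the mean CPM in free RNA: for Lcn2, Fpr1 and Sod2 in LPS and for Olfml3, Ttr, Cx3cr1, P4ha1, Hpgd and Lmo2 in saline the line lies above the members' mean, whereas for Ccr2 in saline it lies at 27.7 CPM against 441 CPM.

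Ccr2 was among the genes that fell most. It stood at 365, 475, 398 and 527 CPM in saline and at 0, 9.85, 23.0 and 42.5 CPM in LPS (log2 fold change -4.86 ± 0.51 SE, adjusted p = 4.59e-05). Free RNA held 27.7 CPM in saline, and the difference was -4.84 with free RNA subtracted. Other genes of the classical monocyte list stayed low in both groups: Ly6c2 at 53.2 and 77.9 CPM, Plac8 at 126 and 24.1 CPM and Chil3 at 0 and 2.46 CPM in saline and LPS. None of these 3 had enough counts for a test.

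The other named falls were in single genes of various functions. Pdgfb, a platelet-derived growth factor chain, stood at 173, 147, 119 and 121 CPM in saline and had 1 UMI in LPS members (pooled ratio of saline to LPS 47.6, interval for counting error only 8.14 to 1921, adjusted p = 0.000106). Ppfia4, a scaffold protein of the liprin family, stood at 269, 229, 159 and 221 CPM in saline and had 2 UMIs in LPS (ratio 38.0, interval for counting error only 10.2 to 319.6, adjusted p = 0.000146). Cd83, a marker of mature antigen-presenting cells that keeps class II on the surface, stood at 652, 491, 129 and 285 CPM in saline and at 32.4, 0, 23.0 and 0 CPM in LPS (log2 fold change -4.43 ± 0.71 SE, adjusted p = 0.000662). In each case every saline library lay above every LPS library, which the rule for naming genes required. Arl4c, a small GTPase, had a log2 fold change of -3.62, P4ha1, a collagen-modifying hydroxylase, of -3.35, Hpgd, which breaks down prostaglandins, of -3.03 and Lmo2, a transcriptional adaptor, of -2.87. Pdgfb, Ppfia4, Arl4c, P4ha1, Hpgd and Lmo2 were at 99.2, 207, 166, 141, 262 and 188 CPM in saline free RNA, near the members' own means of 140, 220, 180, 130, 217 and 163 CPM. With free RNA subtracted Pdgfb, Ppfia4, Arl4c and Lmo2 still passed, at log2 fold changes of -4.97, -4.88, -3.51 and -2.95.

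Some of the named falls moved with free RNA. Ttr, the transthyretin of choroid plexus epithelium, stood at 2245, 14286, 1373 and 6848 CPM in saline members and at 535, 749, 805 and 999.6 CPM in LPS (log2 fold change -3.06, adjusted p = 0.00233), and free RNA held 73111 CPM of it in saline and 17017 CPM in LPS. Olfml3, which microglia secrete, went from 525 to 19.6 CPM in members, from 1467 to 170 CPM in free RNA and from 354 to 37.8 CPM in lymphocytes. Cx3cr1, the fractalkine receptor, went from 821 to 95.4 CPM in members, from 2262 to 702 CPM in free RNA and from 631 to 156 CPM in lymphocytes. In LPS libraries 18 of 82 members and 26 of 117 lymphocytes held a UMI of Cx3cr1, against 77.8% and 47.5% in saline. Depth was not matched in these shares, and whether the LPS share was background was not tested. After subtraction of the estimated free RNA Olfml3 and Cx3cr1 differed by -5.47 and -3.35 on the log2 scale and Ttr, P4ha1, Hpgd and P2ry12 no longer passed the filter on low counts.

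The class II pathway outside the rule fell in part, and class I did not pass the test. Of 5 class II pathway genes tested (of 11 on the list), 3 fell and 0 rose (14.6% and 16.2% of all genes did), with a median log2 fold change of -1.06 against 0.01 for all tested genes. H2-DMa, the alpha chain of the peptide exchanger, stood at 767, 901, 1005 and 1311 CPM in saline and at 89.2, 197, 127 and 191 CPM in LPS (log2 fold change -2.81 ± 0.29 SE, adjusted p = 4.59e-05). Its partner H2-DMb1 went from 773 ± 156 to 172 ± 62.6 CPM (log2 fold change -2.18, adjusted p = 0.00018), and the protease Lgmn from 1630 ± 110 to 813 ± 69.3 CPM (-1.06, adjusted p = 0.000603), with free RNA at 3400 and 1167 CPM, above the members. For H2-DMa the free RNA held 207 CPM in saline and 55.4 CPM in LPS, below the members in both. Ctss, the protease that trims the invariant chain, and the thiol reductase Ifi30 were at 6099 and 434 CPM in saline and 4832 and 362 CPM in LPS and did not pass. All 8 tested class I pathway genes missed the threshold (median log2 fold change 0.23), among them B2m at 7564 and 8599 CPM, H2-K1 at 2111 and 2507 CPM and H2-D1 at 1959 and 2391 CPM.

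Of 4 costimulation and adhesion genes tested (of 9 on the list), Cd83, Icosl and Cd48 fell (14.6% of all genes did), but Cd83 and Icosl passed the filter on low counts through saline libraries alone, so the count supports nothing. Icosl, the ligand of the T-cell receptor ICOS, went from 140 ± 28.1 to 36.0 ± 27.3 CPM (log2 fold change -1.77, adjusted p = 0.00919, and 0.0514 without LPS DMSO replicate 2) and Cd48, a ligand of Cd244, from 277 ± 25.9 to 93.1 ± 60.9 CPM (-1.47, adjusted p = 0.0126). Cd86, which binds Cd28, was at 165 and 104 CPM and did not pass.

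On the LPS effector list of 17 genes, which was made with earlier results of these data known, 9 did not pass the filter on low counts. Saa3, Lcn2, Fpr1, Fpr2 and Clec4d passed it through LPS libraries alone and Cd36 through saline libraries alone, so a count over the list supports nothing. Beside the genes above, Msr1, a scavenger receptor, went from 92.6 ± 48.7 to 415 ± 108 CPM (log2 fold change 2.21, adjusted p = 0.00138) and Clec4d, a lectin that senses mycobacterial glycolipid, from 42.5 ± 43.0 to 297 ± 134 CPM (2.59, adjusted p = 0.00549). With members limited to at most 1 microglial UMI the Clec4d difference was 1.53 and did not pass (adjusted p = 0.11). That fit left out saline DMSO replicates 1 and 2, which then held 5 and 8 members, under the minimum of 10. Its saline libraries were therefore those with inhibitors only, and the reason for the lost call was not tested. Cd36, a scavenger receptor for lipids, was the one that fell, from 184 ± 85.3 to 23.7 ± 17.2 CPM (-2.64, adjusted p = 0.00194). Msr1 stood at 1035 CPM in free RNA of LPS libraries, above the members.

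Of 12 genes of NF-kappaB subunits and feedback 2 were tested and both rose (16.2% of all genes did). Nfkbia, the inhibitor that NF-kappaB induces on itself, went from 279 ± 127 to 1168 ± 274 CPM (log2 fold change 2.07, adjusted p = 0.000545) and Tnfaip3, the deubiquitinase A20, from 59.9 ± 69.1 to 221 ± 107 CPM (2.18, adjusted p = 0.0305). Free RNA of LPS libraries held 1242 and 231 CPM of these, and with it subtracted Tnfaip3 had a log2 fold change of 2.03 (adjusted p = 0.0586). Il1rn, the antagonist of the interleukin 1 receptor, rose from 47.1 ± 81.9 to 269 ± 126 CPM (2.37, adjusted p = 0.0346), while Il1b was at 509 ± 406 and 153 ± 87.1 CPM (-1.64, adjusted p = 0.0544). The calls of Tnfaip3 and Il1rn were each lost when any of 5 libraries was left out. DESeq2 did not call Il1rn (adjusted p = 0.185), and in inhibitor libraries alone its log2 fold change was 1.15 (edgeR, adjusted p = 0.479). Of 9 chemokines tested, 1 rose (Ccl5) and 2 fell (Ccl9 and Cxcl16, by 1.95 and 0.69 on the log2 scale), shares close to the 16.2% and 14.6% of all genes, and the Cxcl16 call was lost when any of 7 libraries was left out. Cxcl2, a neutrophil attractant, was at 82.6 ± 153 and 410 ± 361 CPM and did not pass (2.63, adjusted p = 0.0612). Among 2 LPS sensing genes tested, Cd14, the LPS co-receptor, stood at 558 ± 355 and 1186 ± 562 CPM (adjusted p = 0.0866) and Tlr2 at 271 and 328 CPM.

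Interferon lists did not pass. The 5 tested type I interferon-stimulated genes (of 16) had a median log2 fold change of 0.78 and 0 calls, with Irf7 at 149 ± 168 and 363 ± 126 CPM, Ifitm3 at 940 ± 607 and 1805 ± 544 CPM and Isg15 at 278 ± 276 and 296 ± 68.3 CPM. Irf7 ranged from 0 to 358 CPM among the saline libraries, a spread that limits this comparison. Of the interferon gamma response list 1 gene of 11 was tested, Gbp2, at 111 ± 154 and 157 ± 71.1 CPM.

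Of 10 lysosome and lipid genes tested (of 15 on the list), 2 rose and 3 fell (16.2% and 14.6% of all genes did), and Spp1, Abca1, Ctsb, Ctsd and Lgals3 did not pass. Apoe, the main lipid carrier of brain macrophages, stood at 22594 ± 6344 CPM in saline and 7171 ± 2492 in LPS (log2 fold change -1.70, adjusted p = 0.00117), and Trem2, a lipid-sensing receptor, at 807 ± 83.1 and 266 ± 205 CPM (-1.57, adjusted p = 0.00846). The Trem2 call was lost with at least 3 UMIs of Ms4a7 (-0.97), with border genes at 0 (-1.29) and in DMSO libraries alone (-0.99). That of Apoe was lost in DMSO libraries alone (-1.35). The tetraspanin Cd9 fell as well, by 1.92 (adjusted p = 0.00215). In contrast the protease Ctsl rose from 215 ± 109 to 1096 ± 391 CPM (2.23, adjusted p = 0.000662) and the lysosomal membrane protein Cd63 from 535 ± 230 to 1329 ± 295 CPM (1.24, adjusted p = 0.00885). Ctsl stood at 4302 CPM in free RNA of LPS libraries, above the members, and with free RNA subtracted its log2 fold change was 2.14 (adjusted p = 0.0556). All 3 tested of 7 genes for the uptake of dying cells passed. Axl, a receptor for apoptotic cells, fell from 645 ± 230 to 135 ± 37.9 CPM (-2.34, adjusted p = 0.000209) with free RNA at 32.6 and 17.5 CPM, the integrin Itgb5 fell by 2.27 (adjusted p = 0.00181), and the phosphatidylserine receptor Cd300lf rose by 1.98 (adjusted p = 0.0117). Axl had a UMI in 71.7% of saline members, against 3.61% of microglia and 5.79% of lymphocytes.

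**Figure D4:**
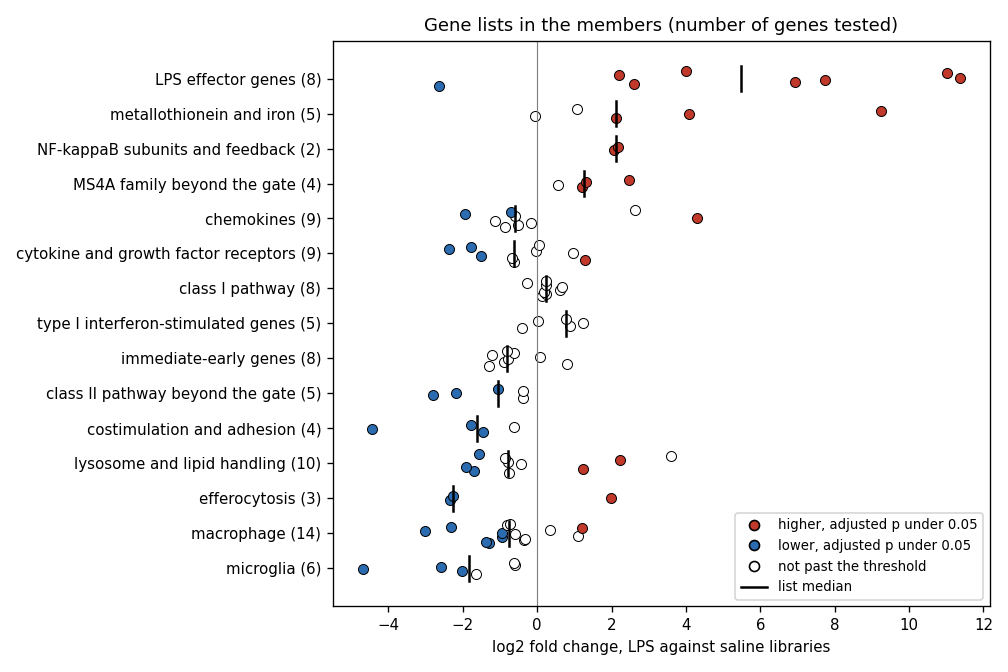
Log2 fold change of each tested gene, LPS against saline members, for 15 gene lists, with the number of genes tested in brackets. Filled points passed an adjusted p of 0.05 and bars mark list medians: class II pathway genes beyond the rule have a median of -1.06 (the LPS effector median is set by genes that passed the count filter only through LPS libraries), while the class I, type I interferon and immediate-early lists hold no filled point.

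Receptor, complement and general macrophage genes moved in both directions, read against the 16.2% higher and 14.6% lower among all genes. Tgfbr1 and Tgfbr2, the receptors of TGF-beta, fell by 2.38 and 1.78 on the log2 scale (adjusted p = 0.00029 and 0.0117) and the interleukin 10 receptor chain Il10ra by 1.51 (adjusted p = 0.00553), while Csf2rb, the shared chain of the GM-CSF receptor, rose by 1.29 (adjusted p = 0.0433), a call lost when any of 5 libraries was left out. These 4 were the calls among 9 receptors tested, 1 higher and 3 lower. Of the complement list C5ar1 rose by 1.23 and C3ar1 fell by 1.02 (adjusted p = 0.0312 and 0.00997), but the C5ar1 call was lost when any of 3 libraries was left out, the C3ar1 call without LPS inhibitors replicate 1 (adjusted p = 0.0507), and both with members limited to at most 1 microglial UMI, a fit without the saline DMSO libraries. Cfb was also tested and did not pass. From the MS4A family of membrane proteins, to which Ms4a7 of the rule belongs, Ms4a6d, Ms4a6c and Ms4a4c rose by 2.46, 1.31 and 1.21 among 4 tested, the last with an adjusted p of 0.0487 and a call lost when any of 6 libraries was left out. Of 14 macrophage genes tested 6 fell (Cx3cr1, Lyz2, Aif1, Adgre1, C1qc and Csf1r) and 1 rose (the integrin Itgam, at 418 and 965 CPM, a call lost when any of 6 libraries was left out). The Csf1r call was lost without LPS DMSO replicate 2 (adjusted p = 0.0522). Lyz2 went from 10476 to 17841 CPM in saline to 1553 to 3843 CPM in LPS libraries (log2 fold change -2.32, adjusted p = 0.000158). The transcription factor Irf8 fell by 1.49 (adjusted p = 0.0125), the factor Maf by 1.56 and the chaperone Hspa8 by 0.83, the last a call lost when either of 2 LPS inhibitors libraries was left out. In inhibitor libraries alone Irf8 and Maf had log2 fold changes of -0.70 and -0.76 and did not pass (edgeR, adjusted p = 0.347 and 0.257). In cell cycle genes only Pcna could be tested and did not pass.

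The coagulation factor gene F13a1, a marker of some border macrophages, did not pass the filter on low counts and was not tested. It stood at 38.4, 65.5, 19.9 and 28.5 CPM in saline and at 170 and 355 CPM in LPS DMSO replicates 1 and 2 and 92.1 and 213 CPM in LPS inhibitors replicates 1 and 2. A UMI was found in 7 of 99 saline and 38 of 82 LPS members, and in 6.18% and 0.855% of lymphocytes. This gene was picked after its values were seen. At 1500 UMIs per cell the shares of members were 4.82% and 18.2%.

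The inhibitors used during dissociation changed few genes in the members. With 4 DMSO against 4 inhibitor libraries, 12 genes (0.96%) were higher with DMSO and 0 (0%) lower among the same 1250 (edgeR; before adjustment 73 had a p under 0.05, and 15 were called by DESeq2). Fos, the immediate-early transcription factor, stood at 1046 to 2590 CPM in DMSO and 49.8 to 191 CPM in inhibitor libraries (log2 fold change 4.42 ± 0.37 SE, adjusted p = 1.1e-05). Egr1, Zfp36, Jun and Junb, also induced within minutes of a stimulus, were higher by 3.76, 3.62, 3.29 and 2.88, and the chemokines Ccl4, Ccl3 and Ccl2 by 3.42, 3.25 and 3.05, the Ccl4 call being lost without saline DMSO replicate 1 (adjusted p = 0.051). Jund, Dusp1, Ier2 and Cd14 made up the rest. None of the 8 tested immediate-early genes passed between LPS and saline (median log2 fold change -0.80). The LPS difference was not found to depend on the inhibitors for any gene (0 of 1846 by edgeR, 70 at an unadjusted p under 0.05, and 0 by DESeq2), but leaving out saline inhibitors replicate 2 gave 7 calls and leaving out LPS DMSO replicate 2 or LPS inhibitors replicate 1 gave 1 each.

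Members were set beside Mrc1-positive class II high cells of the same library. Only 7 libraries held at least 10 cells of both kinds, since LPS inhibitors replicate 2 had 7 Mrc1-positive cells. The border genes that part the 2 kinds were read in these very cells, so genes that vary with them had to differ. The adjusted p values set the mean difference within libraries against its residual spread over libraries, counting error included. Of 2063 genes 34 (1.65%) were higher and 61 (2.96%) lower in the Mrc1-negative members. The call count fell to 38 without saline DMSO replicate 2 and to 20 without saline inhibitors replicate 2, and was 146 in the 4 saline libraries alone and 0 in the 3 LPS libraries alone.

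Border macrophage genes outside the rule were lower in the members. Of 9 tested (of 16 on the list), 7 passed: Pf4, F13a1, Folr2, Dab2, Gas6, Clec10a and Maf (2.96% of all genes were lower). The 9 had a median log2 fold change of -2.18, against -0.01 for all tested genes. Genes that vary with the border genes of the rule had to differ, so this count is a description. F13a1 stood at 38.1 CPM in members and 685 CPM in Mrc1-positive cells of saline libraries and at 206 and 627 CPM in LPS (log2 fold change -2.77 ± 0.38 SE, lower in 7 of 7 libraries, adjusted p = 0.000355). Ccl8, a chemokine for monocytes and T cells, showed the largest difference by the naming rule, at 45.2 against 1195 CPM in saline and 21.4 against 83.7 CPM in LPS (-3.99, adjusted p = 0.000116). Vcam1, an adhesion molecule, was lower by 2.49, the clathrin adaptor Ap1b1 by 2.14, the TGF-beta activator Nrros by 1.53, the calcineurin subunit Ppp3ca by 1.51 and Agtrap, an angiotensin receptor partner, by 1.30 on the log2 scale, the Agtrap call being lost when any of 6 libraries was left out or high doublet scores were removed. Maf, which drives macrophage differentiation, stood at 451 against 1488 CPM in saline and 139 against 299 CPM in LPS (-1.60, adjusted p = 0.000188).

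Of the 8 named genes higher in the members, 0 kept the call when both kinds of cells were limited to at most 1 microglial UMI, while 6 of the 8 lower ones kept it and Ppp3ca and Agtrap gave no value. Under that limit only saline inhibitors replicates 1 and 2 held at least 10 cells of both kinds (13 and 25 members, 28 and 65 Mrc1-positive cells). No LPS or DMSO library entered, and whether the lost calls follow from the fewer libraries was not tested. Cd9 and Gngt2 then had log2 fold changes of 0.52 and 0.63, and the other 6 of 0.93 (Cd52) to 1.80 (Bcl2a1a), with adjusted p from 0.0608 to 0.43. The differences of Bcl2a1a, Bcl2a1d, Btg1 and Cd52 were then larger than with all cells. In the full comparison Cadm1, an adhesion molecule, stood at 219 against 97.4 CPM in saline and 56.7 against 4.53 CPM in LPS (log2 fold change 1.37 ± 0.33 SE, adjusted p = 0.0237, higher in 7 of 7 libraries). Cd9 was higher by 1.31 (adjusted p = 0.000375), with 591 against 256 CPM in saline. Cd52, a small surface glycoprotein of leukocytes, stood at 2109 to 2261 CPM in the members of the 7 libraries, against 1076 to 1847 CPM in Mrc1-positive cells (0.81 ± 0.13 SE, adjusted p = 0.00119), while the members of LPS inhibitors replicate 2, outside this comparison, held 86 of Cd52 among 47017 UMIs, a lower level. The anti-apoptotic genes Bcl2a1d, Bcl2a1a and Bcl2a1b were higher by 1.16, 1.15 and 1.13. They are nearly identical copies, so their separate levels are uncertain. Gngt2, a G protein gamma subunit, and Btg1, a brake on proliferation, were higher by 1.01 and 0.86 (adjusted p = 0.0287 and 0.0373). The calls of Cadm1, Bcl2a1a and Gngt2 were each lost when any of 3 libraries was left out, and that of Btg1 when any of 5 was. The Bcl2a1a call was also lost with high doublet scores removed (adjusted p = 0.0606). Microglia stood at 112 CPM of Cadm1, 899 CPM of Cd9 and 599 CPM of Cd52 on average over the 7 libraries.

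**Figure D5:**
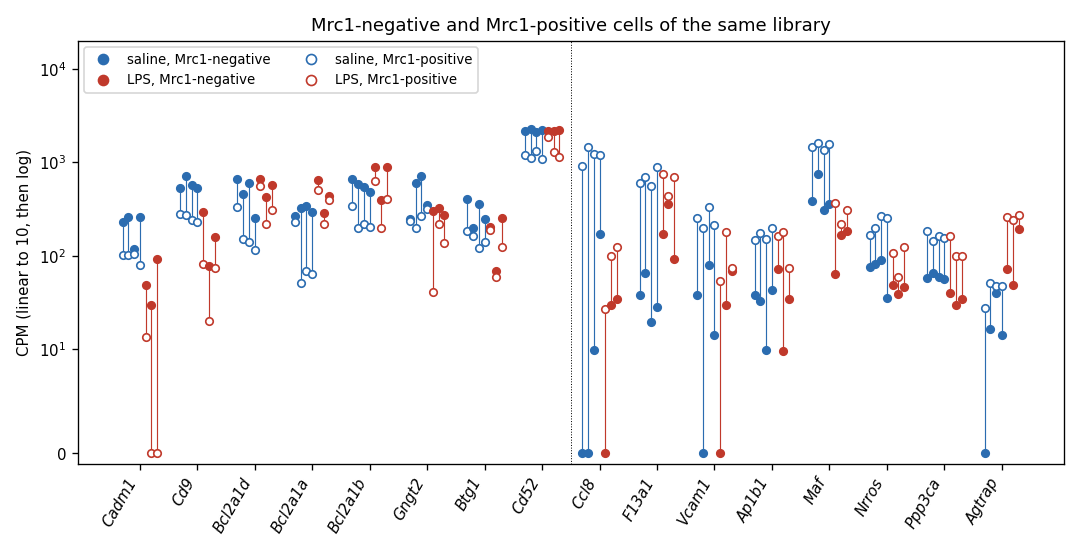
CPM of 16 genes in Mrc1-negative members (filled) and Mrc1-positive cells (open) of the same library, joined by a line, for 4 saline and 3 LPS libraries (linear to 10 CPM and logarithmic above). Members lie above in all 7 libraries for the 8 genes on the left, and Cd52 lies between 2109 and 2261 CPM in members of these 7, whereas they lie below for the 8 on the right.

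The LPS difference itself was compared between the 2 kinds of cells. An interaction test over 2063 genes gave 1 call, AA467197 (log2 difference -4.81 ± 0.67 SE, adjusted p = 0.00862), with 190 genes at an unadjusted p under 0.05 and 1 call by DESeq2. In members it stood at 0, 0, 488 and 64.1 CPM in saline libraries and at 762, 305 and 414 CPM in 3 LPS libraries, and in Mrc1-positive cells at 0, 0, 6.49 and 3.57 CPM and at 842, 180 and 173 CPM. In saline inhibitors replicate 1, 1 member carried 45 of its 49 UMIs, and without that library or without LPS DMSO replicate 1 the test gave 0 calls.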

How the data were processed

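The authors processed reads with PIPseeker v.2.0 (STAR alignment to a GRCm39 reference, per the methods) and deposited raw UMI counts per gene and barcode for 8 libraries, without selection of cells. Cells of 800 to 44999 UMIs, 250 to 6499 genes and under 5% mitochondrial counts were kept, and members were chosen on raw UMIs. The members and the gene lists were chosen with earlier results of these data known. Member counts were summed per library (the library is the unit), passed through filterByExpr, normalized with TMM factors and tested in edgeR 4.0.16 (R 4.3.3) quasi-likelihood with Benjamini-Hochberg adjustment over all genes tested, and DESeq2 1.42.0 was an alternative. The replicate number equals the batch in the labels, so the numbers pair samples by batch (the methods separate the data by cell capture day). Deviations of same-numbered samples correlated from -0.057 to 0.12 over 1255 genes. No test is reported for the 14 genes of the rule. Those with enough counts stayed in the fits and in the adjustment, 5 in the LPS comparison and 9 in that with Mrc1-positive cells. Some genes of the lists are not reported here by name.

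Genes were named by rule: the 12 largest rises and 12 largest falls with adjusted p under 0.05, at least 100 CPM in the higher group and no overlap between groups, 8 each way in other comparisons, and called list members. Mrc1-positive cells, with a library as block, needed at least 10 cells of both kinds. Doublets were kept. Scrublet (scanpy 1.11.5) marked fewer than 0.5% of cells by its own threshold, so an alternative removed the top 8% by score in each library. Free RNA came from barcodes of 1 to 99 UMIs. Fold bounds used 3 counts over the group, and exact intervals were at 95% and cover counting error only. The edgeR script was tested on simulated data. Gene names came from the deposited tables, and promoter sequences from RefSeq (GRCm38.p6), where 6 genes matched (Mt1, Mt2, H2-Aa, H2-Eb1, H2-DMa, H2-DMb1) and H2-Ab1 did not.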

Additional observations from a re-analysis of the deposited data

Results flagged for a closer look

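Among groups of 4 libraries, 7 values lay apart from the other 3 by the gap of the extreme library over the range, a test by which chance flags about 1 in 20 groups. The share of members was 0.327% in saline inhibitors replicate 2, against 0.106% to 0.127% in the other saline libraries. Mt2 stood at 16.4 CPM in saline DMSO replicate 2, which held its single saline UMI, and at 0 in the others. Ccl5 stood at 3304 CPM in saline inhibitors replicate 1 and at 76.7 to 178 CPM in the other saline libraries. Among LPS libraries Fpr3 stood at 468 CPM in inhibitors replicate 2 (others 207 to 251 CPM) and Cx3cr1 at 203 CPM in DMSO replicate 1 (others 46.0 to 69.0 CPM). Pdgfb stood at 9.85 CPM in LPS DMSO replicate 2 and Ppfia4 at 23.0 CPM in LPS inhibitors replicate 1, with 0 in the other LPS libraries. For Mt2, Pdgfb and Ppfia4 the gap equals the range because the other 3 libraries were at 0, the value rests on 1 or 2 UMIs in 1 cell, and the rate of 1 in 20 does not apply.

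The LPS difference of AA467197 differed between Mrc1-negative and Mrc1-positive cells by -4.81 on the log2 scale (edgeR interaction test, adjusted p = 0.00862), and 1 member of saline inhibitors replicate 1 held 45 of the 49 UMIs of that library.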

How the results depend on the processing

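The 386 genes called between LPS and saline became 171 with members limited to at most 1 microglial UMI, 156 with at least 3 UMIs of Ms4a7, 156 with border genes at 0, 231 in DMSO libraries alone and 139 in inhibitor libraries alone, settings with fewer cells or libraries, and 291 to 404 with 1 library left out. With the batch number as a replicate block there were 388, and 401 with the ex vivo treatment added; the block gave 12 calls for DMSO against inhibitors and 0 for the interaction with LPS. The 12 calls for DMSO became 38 without a filter on low counts and 2 with the microglial limit, and 10 to 15 with 1 library left out. Under the microglial limit the saline DMSO libraries held 5 and 8 members and were left out, so the DMSO libraries of that fit were from LPS mice only. The interaction gave 0 to 7 calls with 1 library left out. The 95 calls between Mrc1-negative and Mrc1-positive cells became 146 in saline libraries, 0 in LPS libraries, 49 with the microglial limit (saline inhibitors libraries only), 291 against cells with at least 8 border UMIs, and 20 to 113 with 1 library left out. The LPS difference between the 2 kinds of cells gave 1 call, 3 with high doublet scores removed and 0 to 7 with 1 library left out, and could not be fitted under the microglial limit. The difference in the share of members ran from -0.057 to 0.020 percentage points, and that in median UMIs from 267 to 751, with 1 library left out. Of the named genes' values under alternatives, 1614 kept their direction and side of the threshold, 184 kept only the direction and 0 reversed; where no cause is named above, the cause was not tested. With 13 to 48 members a library, genes of low counts could not be tested.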
